A study of Mus musculus with 35 samples.

Results

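The innate receptors of macrophages examined here were the Toll-like receptor genes *Tlr1*, *Tlr2*, *Tlr3*, *Tlr4*, *Tlr6*, *Tlr7*, *Tlr8* and *Tlr9*, with *Cd14* and *Ly96*, which encode partners of the LPS receptor. The genes were chosen by symbol, and each matched 1 Ensembl identifier, giving 10 of the 47069 identifiers in the deposited tables. All 10 passed the filter on low values (a mean of at least 1 FPKM over the 35 libraries). FPKM divides the fragments assigned to a gene by its length and by the size of the library.

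RNA-seq was performed on bone marrow-derived macrophages (BMDMs), grown out of C57BL/6 bone marrow in L929-conditioned medium, a source of macrophage colony-stimulating factor. Wild-type BMDMs and BMDMs labelled AMPKa1-/- were exposed for 24 h to DMSO vehicle, 100 nM dexamethasone (Dex, a synthetic glucocorticoid), 100 ng/ml LPS (lipopolysaccharide), the same LPS with Dex (LPS + Dex), DAMPs at 1 µg/ml, or these with Dex (DAMPs + Dex). DAMPs are damage-associated molecular patterns, and the labels do not give their composition. Each of the 12 groups held 3 libraries except wild-type LPS, for which replicates 2 and 3 were used and replicate 1 was not analysed here. The labels do not say whether replicates came from separate mice. The study's methods count cultures of individual mice as replicates unless stated otherwise, and the p-values measure the spread between these libraries. Totals read from the FPKM steps of weak genes ranged from 15837000 to 31955000 fragments per library. The lowest fragment number of any member in any library was 26, for *Tlr9*, whose highest was 1502, and this limits the precision of its lowest values.

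The genotype label was checked first. *Prkaa1*, which encodes AMPKα1, was measured at 15.9, 11.8 and 15.3 FPKM in wild-type vehicle libraries and at 14.8, 16.5 and 15.4 FPKM in vehicle libraries labelled AMPKa1-/-. With Dex its values were 26.1, 23.2 and 19.1 FPKM in wild-type and 21.5, 14.0 and 20.4 FPKM under the AMPKa1-/- label. With LPS they were 15.3 and 10.4 FPKM in wild-type and 9.05, 11.2 and 10.5 FPKM under the label. The ranges overlapped in each of these 3 treatments, so the level of the whole gene did not separate the genotypes. For LPS + Dex *Prkaa1* was measured at 20.5, 13.7 and 8.59 FPKM in wild-type and 12.5, 12.9 and 9.65 FPKM under the label. For DAMPs it was measured at 17.9, 12.4 and 11.03 FPKM in wild-type and 10.7, 15.8 and 16.4 FPKM under the label, and for DAMPs + Dex at 20.9, 12.5 and 19.5 against 21.8, 20.0 and 24.0 FPKM. *Prkaa1* passed the test in none of the 6 genotype comparisons (adjusted p = 0.35 for Dex, the lowest of the 6, limma). Whether the deleted part of the gene lies within the measured exons is not given in the sources used here, and these libraries are called "labelled AMPKa1-/-" throughout.

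The treatment labels were matched by their known response genes. All 5 LPS response genes examined (*Tnf*, *Il6*, *Il12b*, *Nos2* and *Cxcl10*) rose with LPS and all 4 glucocorticoid response genes (*Tsc22d3*, *Fkbp5*, *Per1* and *Dusp1*) rose with Dex, in both genotypes. Macrophage markers summed to between 2258 and 3909 FPKM in every library, with *Adgre1* (F4/80) the most abundant at a mean of 1287 FPKM. The sum moved with Dex: all Dex and DAMPs + Dex libraries of both genotypes lay between 2258 and 2590 FPKM, below every vehicle library (2843 to 3793 FPKM). With Dex alone 3 of the 6 macrophage markers fell (*Cd68*, *Fcgr1* and *Itgam*) and *Mertk* rose in both genotypes. Of all genes, 14.9% fell and 15.9% rose with Dex in wild-type, and 16.0% and 11.9% under the label. With LPS 2 of the 6 macrophage markers rose and 3 fell in both genotypes. Of all genes, 19.9% rose and 35.8% fell with LPS in wild-type, and 20.2% and 44.1% under the label. T cell markers reached at most 0.204 FPKM and B cell markers at most 2.70 FPKM for any gene in any library, and the mast cell genes *Tpsb2* and *Fcer1a* were at 0 throughout. Neutrophil markers summed to a median of 70.9 FPKM and were highest in all 6 LPS + Dex libraries, at 655, 513 and 1201 FPKM in wild-type and 354, 339 and 626 FPKM under the label, against at most 162 FPKM in any other library. Most of this was *S100a8* (617, 478 and 1147 FPKM in wild-type and 307, 301 and 581 FPKM under the label). With LPS alone the neutrophil sum was 162 and 127 FPKM in wild-type and 149, 135 and 142 FPKM under the label. These sums lay above every vehicle library (6.58 to 60.9 FPKM). Against vehicle, 2 of the 6 tested rose with LPS in each genotype, while 1 fell in wild-type and 2 fell under the label. Of the 6 neutrophil markers tested for LPS + Dex against LPS, *S100a8* rose and *Camp* fell in both genotypes and the other 4 did not pass the test, while *Ly6g*, *Elane* and *Mpo* had group means of at most 0.0667, 0.205 and 0.173 FPKM. Dendritic cell markers summed to a median of 0.863 FPKM and a highest value of 112 FPKM, reached with LPS through *Ccr7* (109.9 FPKM). Fibroblast markers summed to between 0.573 and 12.9 FPKM, with *Col1a1* the most abundant at a mean of 2.37 FPKM. The part of these markers in the changes with LPS, with DAMPs and with Dex, alone or combined, was not tested.

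Toll-like receptors recognise molecular patterns of microbes and of damaged cells and signal through the adaptors MyD88 and TRIF to NF-κB, MAP kinases and interferon regulatory factors. TLR2 pairs with TLR1 or TLR6 at the cell surface to bind bacterial lipopeptides, and TLR4 with its co-receptor MD-2, the product of *Ly96*, binds LPS handed over by CD14. TLR3, TLR7, TLR8 and TLR9 sit in endosomes and sense nucleic acids: double-stranded RNA for TLR3, single-stranded RNA for TLR7 and DNA with CpG motifs for TLR9, while the ligand range of mouse TLR8 is less settled. In macrophages, glucocorticoids act through the glucocorticoid receptor, which raises some genes and represses many inflammatory ones.

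Promoter sequences from RefSeq (GRCm38.p6, from 250 bases before to 50 bases after an annotated start) were found for 6 of the 10 genes. *Tlr4*, *Tlr7*, *Cd14* and *Ly96* had none in the table used. They are printed for *Tlr1*, *Tlr2* and *Tlr6*, whose levels all rose with LPS and then differed in their response to Dex, and for *Tlr9*, whose level fell with LPS. Capitals mark matches on either strand. The letters searched were GAGGAA for the PU.1 core, TGANTCA for the AP-1 motif, AGAACA for the glucocorticoid receptor half-site and TATAAA for the TATA box, beside the NF-κB and ISRE motifs, each of 10 letters with open positions in the middle. The sequences run 5′ to 3′ on the coding strand. They lie at chr5:64933509-64933808 on the minus strand (*Tlr1*, the start farther upstream of 2), chr3:83841559-83841858 on the minus strand (*Tlr2*), chr5:64959117-64959416 and chr5:64959999-64960298 on the minus strand (*Tlr6*, starts 1 and 2), and chr9:106222348-106222647 on the plus strand (*Tlr9*).
Tlr1: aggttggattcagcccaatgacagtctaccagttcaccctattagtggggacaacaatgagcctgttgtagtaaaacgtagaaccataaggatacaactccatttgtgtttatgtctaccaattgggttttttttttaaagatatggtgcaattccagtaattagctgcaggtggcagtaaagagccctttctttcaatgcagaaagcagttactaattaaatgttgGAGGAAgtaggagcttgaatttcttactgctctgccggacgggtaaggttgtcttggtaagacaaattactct
Tlr2: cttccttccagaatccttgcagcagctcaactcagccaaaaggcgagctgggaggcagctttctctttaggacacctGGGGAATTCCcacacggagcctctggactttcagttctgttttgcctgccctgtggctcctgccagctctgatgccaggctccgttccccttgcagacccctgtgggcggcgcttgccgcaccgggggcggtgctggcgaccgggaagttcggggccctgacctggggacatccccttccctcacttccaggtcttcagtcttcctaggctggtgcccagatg
Tlr6 start 1: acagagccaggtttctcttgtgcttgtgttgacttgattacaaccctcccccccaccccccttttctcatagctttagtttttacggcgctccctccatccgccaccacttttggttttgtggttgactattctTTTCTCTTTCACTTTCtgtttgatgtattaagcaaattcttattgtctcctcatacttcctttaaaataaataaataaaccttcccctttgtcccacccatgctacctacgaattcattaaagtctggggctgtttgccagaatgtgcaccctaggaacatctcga
Tlr6 start 2: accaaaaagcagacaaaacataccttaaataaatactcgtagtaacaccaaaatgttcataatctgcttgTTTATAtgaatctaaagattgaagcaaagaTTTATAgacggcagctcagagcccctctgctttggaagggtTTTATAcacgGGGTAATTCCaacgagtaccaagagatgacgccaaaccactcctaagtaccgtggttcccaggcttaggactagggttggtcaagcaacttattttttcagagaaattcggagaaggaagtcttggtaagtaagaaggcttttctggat
Tlr9: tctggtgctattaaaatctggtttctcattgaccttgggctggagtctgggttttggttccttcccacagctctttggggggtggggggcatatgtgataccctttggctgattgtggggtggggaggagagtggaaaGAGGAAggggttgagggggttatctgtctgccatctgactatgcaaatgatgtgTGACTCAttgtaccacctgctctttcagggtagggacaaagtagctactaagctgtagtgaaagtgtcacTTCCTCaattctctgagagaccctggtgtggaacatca

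The *Tlr2* window held 1 NF-κB match, which began 173 bases before the start. The second *Tlr6* window held 1 NF-κB match, 99 bases before the start, and 3 TATA box matches, and the first held 2 overlapping ISRE matches. The *Tlr1* window held 1 PU.1 core match, 23 bases before the start, and none of the other letters searched. In the *Tlr9* window lay 2 PU.1 core matches and 1 AP-1 match. No glucocorticoid receptor half-site of these letters lay in any of the 5 windows. Among windows not printed, that of *Tlr3* held 1 NF-κB match, 211 bases before the start. *Tlr3* did not pass the test with LPS alone in the main fit. The *Tlr8* window held 1 PU.1 core match and 2 TATA box matches, and the other *Tlr1* window held no match. Of 32544 different promoter windows in the table, 28.1% held the PU.1 core, 7.79% AP-1, 18.9% the half-site, 5.56% NF-κB, 3.45% ISRE and 13.6% the TATA box. The matches describe the windows and are not evidence of binding.

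*Tlr1* and *Tlr6* are neighbours on chromosome 5 (GRCm38, 64924679 to 64933563 and 64952031 to 64960097), and *Tlr7* and *Tlr8* on chromosome X (167304929 to 167330558 and 167242696 to 167264329). The members of each pair are related in sequence, and how fragments that fit both were assigned is not given in the sources used here. *Tlr2* lies on chromosome 3 (83836272 to 83841767), *Tlr3* on chromosome 8 (45395665 to 45411080), *Tlr4* on chromosome 4 (66827584 to 66930284), *Tlr9* on chromosome 9 (106222598 to 106226883), *Cd14* on chromosome 18 (36725067 to 36726798) and *Ly96* on chromosome 1 (16688051 to 16709611).

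In wild-type vehicle BMDMs *Cd14* had the highest mean level (217 ± 30.9 FPKM; SD, n = 3), followed by *Tlr8* (113 ± 30.0) and *Tlr7* (83.8 ± 6.49). *Ly96* (50.5 ± 6.25), *Tlr4* (35.4 ± 3.49), *Tlr2* (28.6 ± 2.35) and *Tlr1* (23.3 ± 3.93) formed the middle, and *Tlr6* (12.2 ± 0.639), *Tlr9* (7.95 ± 0.484) and *Tlr3* (3.50 ± 0.219) the low end. The order of means was the same under the AMPKa1-/- label. Of neighbours in this order, *Tlr8* and *Tlr7* overlapped in wild-type, as did *Tlr2* and *Tlr1*, and *Tlr4* (36.03 ± 6.81) and *Tlr2* (35.7 ± 4.66) overlapped under the label. Of the other receptors of the family, *Tlr13*, a mouse sensor of bacterial ribosomal RNA, was at a mean of 198 FPKM in vehicle libraries of each genotype, while *Tlr5*, *Tlr11* and *Tlr12* had vehicle means of at most 0.302, 0.0097 and 0.059 FPKM.

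**Figure D1:**
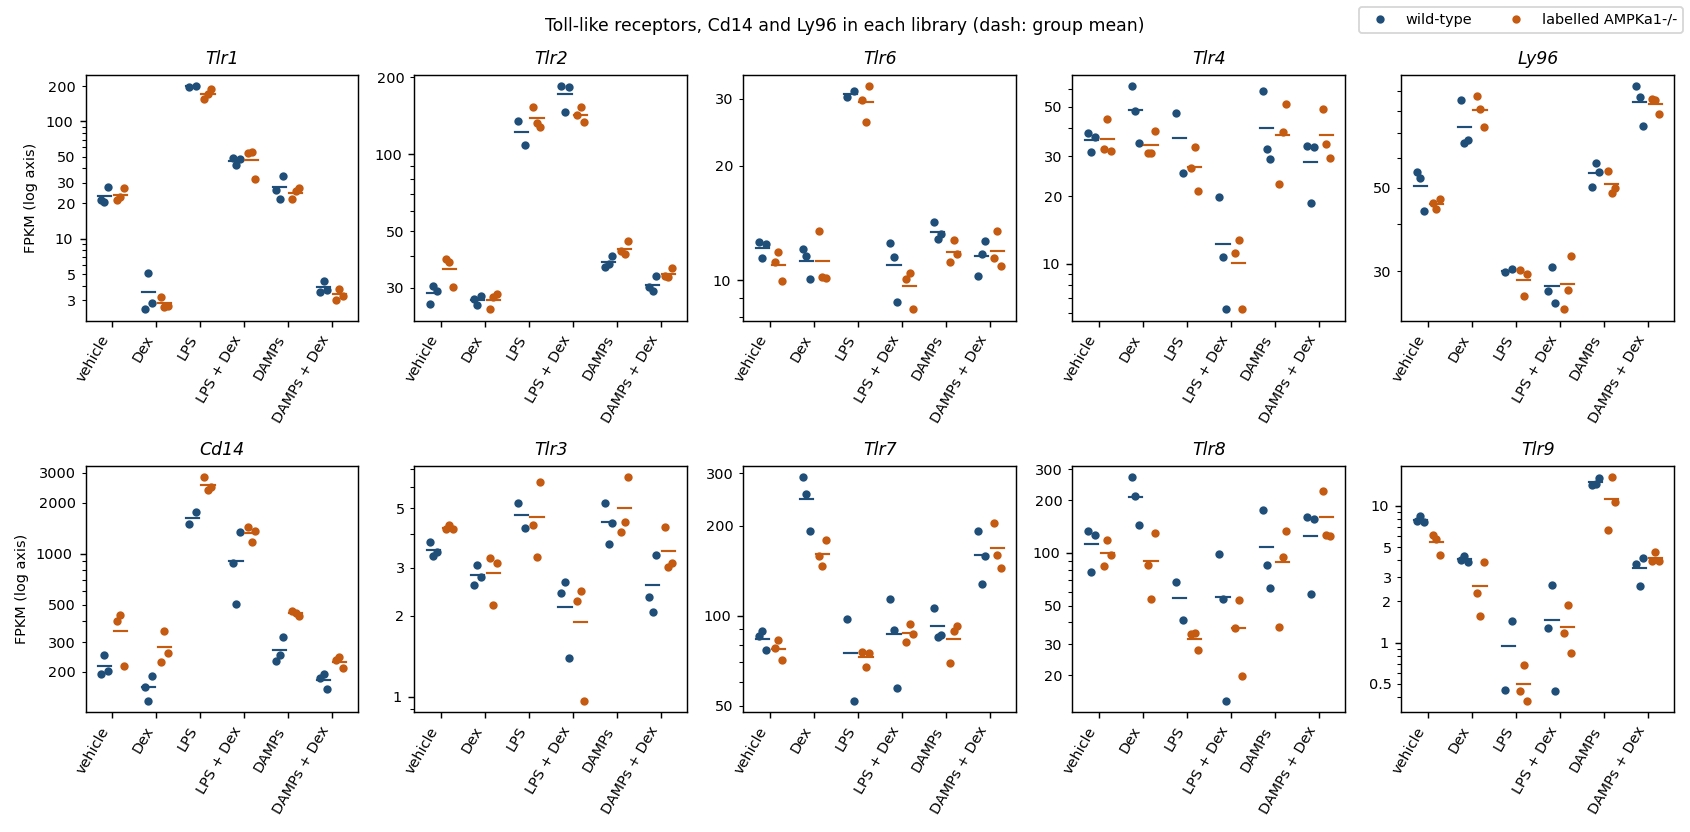
FPKM (log axis) of the 10 genes in every library by treatment, with wild-type in blue, libraries labelled AMPKa1-/- in orange and dashes at group means (3 libraries a group, 2 for wild-type LPS). *Tlr1*, *Tlr6* and *Cd14* peak with LPS, *Tlr2* stays high with LPS + Dex, and *Tlr9* is lowest with LPS and LPS + Dex; for *Tlr1* the wild-type LPS libraries lie at 196 and 201 FPKM and the Dex libraries between 2.51 and 5.12 FPKM.

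With LPS, *Tlr1*, *Tlr2*, *Tlr6* and *Cd14* rose and *Tlr9* and *Ly96* fell in both genotypes. In wild-type 4 of the 10 genes rose and 2 fell, where 55.7% of the 11354 genes tested were called (19.9% higher and 35.8% lower). With the AMPKa1-/- label 4 rose and 3 fell, where 64.3% were called (20.2% higher and 44.1% lower). The median log2 fold change over all genes was -0.19 in wild-type and -0.30 under the label, and that of the 10 genes was 0.16 and -0.01. The distribution of all genes was thus shifted with LPS, and LPS + Dex against vehicle was shifted likewise (-0.23 and -0.28). After centring of the libraries on a common median, the LPS medians were -0.04 in wild-type and -0.02 under the label. The shares called higher and lower above are from values without centring, and the cause of the shift was not tested. For the change of a single gene in bulk RNA, fewer cells of a type and less RNA per cell cannot be told apart.

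With Dex alone, *Tlr7* and *Ly96* rose and *Tlr1* and *Tlr9* fell in both genotypes. Under the AMPKa1-/- label *Tlr2* also fell. That made 2 higher and 2 lower in wild-type, against 30.9% of all genes called (15.9% higher, 14.9% lower), and 2 higher and 3 lower under the label, against 27.9% (11.9% and 16.0%). When Dex was added to LPS, *Tlr1*, *Tlr3*, *Tlr4*, *Tlr6* and *Cd14* were lower than with LPS alone in both genotypes, and *Tlr2* was higher in wild-type. The counts were 1 higher and 5 lower in wild-type, against 34.1% called (16.6% higher, 17.5% lower), and 0 higher and 5 lower under the label, against 37.7% (19.3% and 18.4%). With LPS + Dex against vehicle, 3 genes were higher and 5 lower in each genotype, against 54.2% (17.2% higher, 37.0% lower) and 57.4% (16.7% and 40.8%) called. With DAMPs no member was called, against 2.01% (1.22% higher, 0.793% lower) and 4.13% (1.89% and 2.24%) of all genes. DAMPs + Dex against DAMPs gave 2 higher and 3 lower in wild-type and 2 higher and 4 lower under the label, against 24.3% (11.7% higher, 12.6% lower) and 25.3% (13.1% and 12.2%). The shares of all genes are high, and the counts describe the 10 genes only. The comparisons with vehicle share their vehicle libraries, and LPS serves in LPS against vehicle and in LPS + Dex against LPS.

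**Figure D2:**
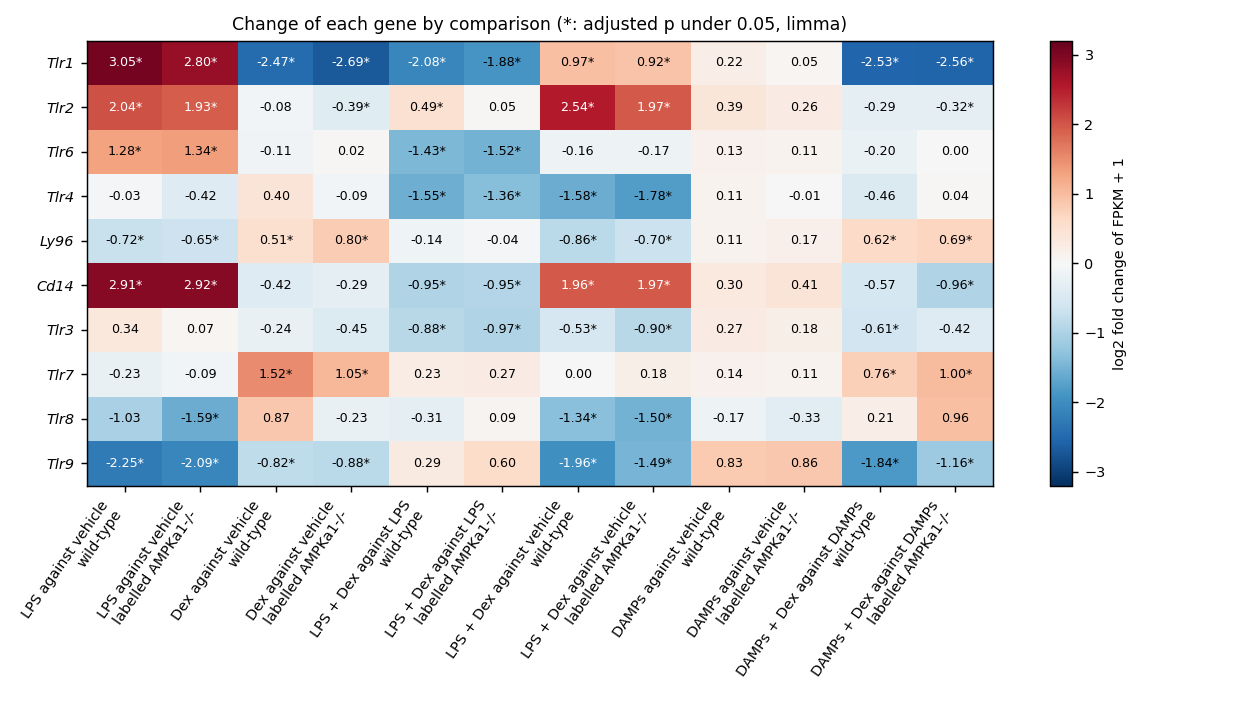
Colour and number give the log2 fold change of FPKM + 1 for each gene (rows) in each comparison and genotype (columns), with red higher, blue lower and a star where the adjusted p (limma, all 11354 genes) was under 0.05. *Tlr1* is starred in all columns but those of DAMPs alone, and no gene is starred for DAMPs against vehicle.

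Among the TLR2 group, *Tlr1* moved over the widest range of the 10 genes, with group means spanning 56.9-fold in wild-type and 60.4-fold under the AMPKa1-/- label. In wild-type *Tlr1* was measured at 21.4, 20.7 and 27.8 FPKM with vehicle, 196 and 201 FPKM with LPS, and 48.7, 42.4 and 47.4 FPKM with LPS + Dex. With Dex alone it was measured at 2.51, 5.12 and 2.85 FPKM. The 4 groups did not overlap, with LPS highest, then LPS + Dex, then vehicle, and Dex lowest. LPS raised *Tlr1* by 3.05 ± 0.21 (log2 fold change ± SE, adjusted p = 8.88e-13, limma), Dex lowered it by a log2 fold change of -2.47 ± 0.19 (adjusted p = 5.39e-11), and Dex with LPS by -2.08 ± 0.21 against LPS (adjusted p = 5.44e-09). Under the AMPKa1-/- label *Tlr1* was measured at 21.3, 22.9 and 27.3 FPKM with vehicle, 3.21, 2.64 and 2.68 FPKM with Dex, 155, 171 and 189 FPKM with LPS, and 53.7, 55.4 and 32.3 FPKM with LPS + Dex. The order of groups was the same, again without overlap. LPS + Dex stayed above vehicle in both genotypes (log2 fold changes 0.97 ± 0.19 and 0.92 ± 0.19, limma adjusted p = 7.85e-05 and 0.000128).

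*Tlr2* encodes the shared subunit of both receptor pairs. Its wild-type values were 26.0, 30.6 and 29.3 FPKM with vehicle, 27.1, 25.8 and 27.9 FPKM with Dex, 135 and 108 FPKM with LPS, and 185, 146 and 183 FPKM with LPS + Dex. LPS and LPS + Dex libraries lay above all others, and every LPS + Dex library lay above both LPS libraries. *Tlr2* rose by 2.04 ± 0.12 with LPS (adjusted p = 3.04e-14, limma) and was 0.49 ± 0.12 higher with LPS + Dex than with LPS (adjusted p = 0.00175). That second call was lost without wild-type LPS replicate 3 (0.33, adjusted p = 0.0936, limma), which leaves 1 LPS library and takes its spread from the rest of the fit, and when only the groups compared were fitted (adjusted p = 0.113). Under the AMPKa1-/- label *Tlr2* was measured at 153, 133 and 128 FPKM with LPS and at 142, 152 and 134 FPKM with LPS + Dex. These overlapped, and the log2 fold change of 0.05 had a 95% interval from -0.17 to 0.27. The difference between the genotypes in this Dex effect was -0.44 ± 0.16 with an adjusted p of 1.00 (limma), so a difference was not shown. With Dex alone *Tlr2* under the label was measured at 24.7, 27.6 and 28.5 FPKM, below the vehicle values of 39.0, 37.7 and 30.4 FPKM. That fall (-0.39 ± 0.11, adjusted p = 0.00697, limma) was not called after centring of the libraries (-0.30, adjusted p = 0.0706).

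*Tlr6*, the alternative partner of TLR2, was raised by LPS and was lower with LPS + Dex than with LPS. Its wild-type values were 12.6, 11.5 and 12.5 FPKM with vehicle, 30.3 and 31.5 FPKM with LPS, and 12.6, 11.5 and 8.76 FPKM with LPS + Dex. Under the label they were 11.2, 11.8 and 9.94 FPKM, then 29.7, 26.1 and 32.5 FPKM, then 10.1, 10.5 and 8.38 FPKM. In both genotypes the LPS libraries stood apart and LPS + Dex overlapped with vehicle. The rise was 1.28 ± 0.14 in wild-type and 1.34 ± 0.12 under the label (adjusted p = 9.91e-09 and 3.23e-10, limma), and the fall from LPS to LPS + Dex was -1.43 ± 0.14 and -1.52 ± 0.12 (adjusted p = 3.52e-09 and 9.03e-11). LPS + Dex differed from vehicle by -0.16 (95% interval -0.41 to 0.10) and -0.17 (-0.43 to 0.08). With Dex alone *Tlr6* was measured at 12.05, 11.6 and 10.1 FPKM in wild-type, so that 1 library lay below all vehicle libraries and the groups overlapped. The difference was -0.11 (95% interval -0.37 to 0.15) and did not pass the test, where *Tlr1* fell.

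The ratio of *Tlr1* to *Tlr6* FPKM thus differed among treatments. It lay between 1.69 and 2.23 in wild-type vehicle libraries, between 0.208 and 0.442 with Dex, at 6.46 and 6.39 with LPS, and between 3.68 and 5.41 with LPS + Dex. Under the AMPKa1-/- label the ranges were 1.91 to 2.75, 0.239 to 0.263, 5.20 to 6.53 and 3.85 to 5.33. *Tlr6* exceeded *Tlr1* in every library with Dex or DAMPs + Dex, and *Tlr1* exceeded *Tlr6* in every other library.

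Among the genes of the LPS receptor, *Cd14*, which encodes the protein that delivers LPS to TLR4, had the highest level. Its wild-type values were 195, 252 and 202 FPKM with vehicle, 1490.2 and 1775 FPKM with LPS, and 882, 502 and 1337 FPKM with LPS + Dex. Under the label they were 399, 436 and 217 FPKM, then 2840.1, 2379 and 2463 FPKM, then 1429.8, 1177 and 1371 FPKM. In both genotypes LPS lay highest, LPS + Dex between and vehicle lowest, without overlap. LPS raised *Cd14* by 2.91 ± 0.27 in wild-type and 2.92 ± 0.24 under the label (adjusted p = 5.12e-10 and 3.78e-11, limma), and Dex with LPS lowered it by a log2 fold change of -0.95 in each against LPS (SE 0.27 and 0.24, adjusted p = 0.00729 and 0.00263). The wild-type call was lost without LPS + Dex replicate 2, the library at 502 FPKM (-0.58, adjusted p = 0.0813, limma), without LPS replicate 3 (adjusted p = 0.0846), and when only the groups compared were fitted (adjusted p = 0.168). With Dex alone *Cd14* differed from vehicle by -0.42 (95% interval -0.92 to 0.08) in wild-type and -0.29 (-0.79 to 0.22) under the label.

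*Tlr4*, the signalling chain of the LPS receptor, did not pass the test with LPS alone, and was lower with LPS + Dex. Its wild-type values were 38.2, 31.5 and 36.5 FPKM with vehicle, 47.0 and 25.2 FPKM with LPS, and 19.8, 10.7 and 6.25 FPKM with LPS + Dex. Under the label they were 32.5, 43.9 and 31.7 FPKM, then 26.6, 33.1 and 21.0 FPKM, then 11.2, 12.8 and 6.29 FPKM. LPS + Dex lay below vehicle and below LPS without overlap in both genotypes. Against LPS the log2 fold change was -1.55 ± 0.39 in wild-type and -1.36 ± 0.35 under the label (adjusted p = 0.00224 and 0.00236, limma), and against vehicle -1.58 ± 0.35 and -1.78 ± 0.35 (adjusted p = 0.000329 and 7.81e-05). The wild-type call against LPS was lost without LPS replicate 2 (-1.12, adjusted p = 0.0963, limma) and when only the groups compared were fitted (adjusted p = 0.0759). For LPS against vehicle the 95% intervals ran from -0.82 to 0.76 and from -1.13 to 0.29.

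*Ly96*, which encodes MD-2, fell with LPS and rose with Dex. In wild-type it was measured at 55.04, 53.1 and 43.4 FPKM with vehicle, 85.2, 65.7 and 66.8 FPKM with Dex, 29.9 and 30.4 FPKM with LPS, and 26.6, 30.8 and 24.8 FPKM with LPS + Dex. Under the label the values were 45.4, 44.0 and 46.6 FPKM, then 87.3, 80.8 and 72.2 FPKM, then 30.2, 25.8 and 29.5 FPKM, then 23.8, 26.8 and 32.9 FPKM. Dex lay above vehicle and vehicle above LPS without overlap, and LPS and LPS + Dex overlapped. The log2 fold changes with LPS were -0.72 ± 0.14 and -0.65 ± 0.12 (adjusted p = 5.31e-05 and 3.38e-05, limma), and -0.57 and -0.38 after centring of the libraries (adjusted p = 0.00695 and 0.0383). Dex raised *Ly96* by 0.51 ± 0.12 and 0.80 ± 0.12 (adjusted p = 0.00201 and 1.00e-05, limma). With LPS present, Dex changed it by -0.14 (95% interval -0.42 to 0.14) and -0.04 (-0.29 to 0.21).

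The ratio of *Cd14* to *Tlr4* FPKM lay between 5.11 and 8.0 in wild-type vehicle libraries, at 31.7 and 70.3 with LPS, and at 44.5, 46.8 and 214 with LPS + Dex. Under the label it lay between 6.82 and 12.3, between 71.9 and 118, and between 92.2 and 218. The LPS and LPS + Dex ranges overlapped in both genotypes and lay above vehicle.

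Of the endosomal receptors, *Tlr9* had the lowest levels after LPS. It was measured at 7.72, 8.50 and 7.62 FPKM with vehicle, 4.02, 4.31 and 3.91 FPKM with Dex, 0.446 and 1.44 FPKM with LPS, and 1.29, 2.66 and 0.439 FPKM with LPS + Dex in wild-type. Under the label it was measured at 6.14, 5.70 and 4.37 FPKM, then 2.32, 1.57 and 3.87 FPKM, then 0.445, 0.680 and 0.376 FPKM, then 1.18, 1.89 and 0.841 FPKM. Vehicle lay above Dex, and Dex above LPS, without overlap. On the log2(FPKM + 1) scale, which understates changes of low genes, *Tlr9* changed by -2.25 ± 0.31 and -2.09 ± 0.28 with LPS (adjusted p = 4.68e-07 and 1.92e-07, limma), and by -3.13 and -3.21 with a pseudocount of 0.1. With Dex alone it changed by -0.82 ± 0.28 and -0.88 ± 0.28 (adjusted p = 0.0253 and 0.0176, limma), calls that were lost with a pseudocount of 0.1 (adjusted p = 0.0924 and 0.0506) and, in wild-type, with no filter (0.0556), without vehicle replicate 2 (adjusted p = 0.0804) or without any 1 of the 3 Dex libraries (adjusted p = 0.0536 to 0.0602). Under the label it was lost without vehicle replicate 1 or 2 (0.0658 and 0.0576, limma adjusted p) or Dex replicate 1 or 2 (0.0503 and 0.121).

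*Tlr7*, a sensor of single-stranded RNA, rose with Dex alone. In wild-type its values were 85.8, 89.1 and 76.6 FPKM with vehicle and 291, 256 and 192 FPKM with Dex, and under the label 77.7, 83.0 and 70.9 FPKM and 158, 147 and 179 FPKM. All Dex libraries lay above all vehicle libraries. The rise was 1.52 ± 0.21 in wild-type and 1.05 ± 0.21 under the label (adjusted p = 2.43e-06 and 0.000332, limma). With LPS + Dex *Tlr7* was measured at 114, 89.5 and 57.1 FPKM in wild-type and 81.8, 93.7 and 86.9 FPKM under the label. These lay within or near the LPS values of 97.8 and 52.0 FPKM in wild-type, and above the LPS values of 75.4, 67.3 and 74.9 FPKM under the label. The differences of 0.23 (95% interval -0.25 to 0.70) and 0.27 (-0.16 to 0.70) did not pass the test.

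*Tlr3*, a sensor of double-stranded RNA, was lower with LPS + Dex than with LPS in both genotypes. It was measured at 5.24 and 4.23 FPKM with LPS and at 2.42, 2.66 and 1.39 FPKM with LPS + Dex in wild-type, and at 4.34, 3.30 and 6.27 against 2.27, 2.46 and 0.968 FPKM under the label. The groups did not overlap, and the log2 fold changes were -0.88 ± 0.23 and -0.97 ± 0.21 (adjusted p = 0.00403 and 0.000466, limma). The wild-type call was lost without LPS replicate 2 (-0.75, adjusted p = 0.0712, limma) and when only the groups compared were fitted (adjusted p = 0.0612). *Tlr3* was also lower with LPS + Dex than with vehicle (-0.53 ± 0.21 and -0.90 ± 0.21, adjusted p = 0.0329 and 0.000632, limma). In wild-type that call was lost after centring (-0.31, adjusted p = 0.146, limma), with quantile normalization (-0.21, adjusted p = 0.305), with no filter or only the groups compared (adjusted p = 0.0706 and 0.0655), and without LPS + Dex replicate 3 (-0.35, adjusted p = 0.214) or any vehicle library (adjusted p = 0.0505 to 0.089). Against vehicle, LPS alone gave *Tlr3* differences of 0.34 (adjusted p = 0.22, limma) and 0.07 (adjusted p = 0.775). After centring the wild-type rise was called (0.49, adjusted p = 0.0339, limma), and with quantile normalization in both genotypes (adjusted p = 0.00768 and 0.014).

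*Tlr8* had the widest spread within groups. Its wild-type values were 133, 78.2 and 127 FPKM with vehicle, 271, 210 and 144 FPKM with Dex, 68.1 and 41.6 FPKM with LPS, and 97.9, 54.6 and 14.3 FPKM with LPS + Dex. Under the label they were 83.8, 119 and 97.1 FPKM, then 84.9, 54.3 and 130 FPKM, then 34.4, 34.8 and 27.8 FPKM, then 37.3, 54.1 and 19.7 FPKM. LPS lay below vehicle without overlap in both genotypes, by -1.59 ± 0.53 under the label (adjusted p = 0.011, limma) and by -1.03 ± 0.60 in wild-type, which did not pass the test (adjusted p = 0.148). LPS + Dex against vehicle gave -1.34 ± 0.53 and -1.50 ± 0.53 (adjusted p = 0.0362 and 0.018, limma). Without LPS + Dex replicate 3 the wild-type value was -0.58 (adjusted p = 0.375, limma), and it was not called without vehicle replicate 1 or 3 (adjusted p = 0.106 and 0.096), with only the groups compared (0.119), with no filter (0.0851), or after centring or quantile normalization (0.0543 and 0.0583). Under the label the call was lost without vehicle replicate 2 (adjusted p = 0.0597, limma) or LPS + Dex replicate 3 (-1.12, adjusted p = 0.115).

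Part of this spread was shared among genes. The first component of the deviations from group means held 33.8% of the within-group variance of the 11354 genes. Its gene loadings correlated with GC content (r = 0.421) and with log2 transcript length (r = -0.430) across 11334 genes, which are not independent replicates. Over the 35 libraries, the deviation of *Tlr8* followed the library score with r = -0.956, that of *Tlr4* with r = -0.903, of *Tlr7* with r = -0.708 and of *Tlr3* with r = -0.668. By the size of the loading, not of r, these genes lay at percentiles 99.8, 98.2, 79.1 and 75.0 of all genes tested. *Tlr2* (r = -0.079) lay at percentile 5.48. These genes were among those that gave the score, so the values are a description. Wild-type LPS + Dex replicates 1 and 3 had scores of -0.37 and 0.36, the lowest and the highest of the 35 libraries. With a trend on GC content and length removed from each library, LPS + Dex against vehicle for *Tlr8* was -1.34 ± 0.48 and -1.52 ± 0.48 (adjusted p = 0.0188 and 0.00802, limma), so those calls were kept.

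**Figure D3:**
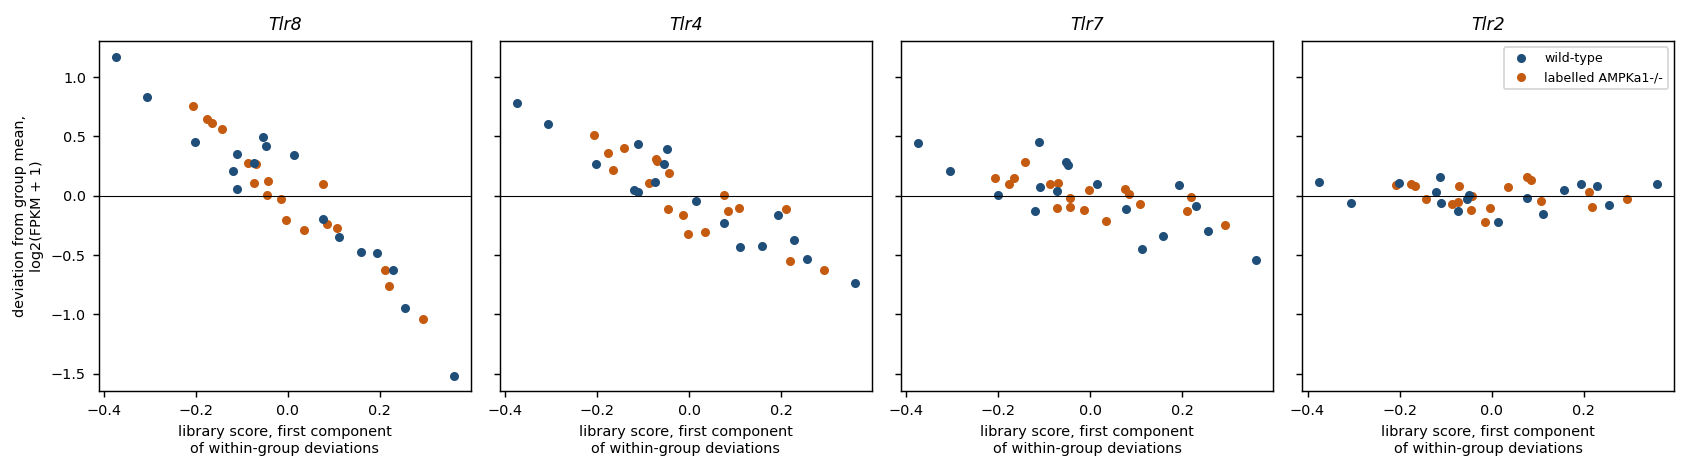
Deviation of each library from its group mean, log2(FPKM + 1), against the library score on the first component of within-group deviations, for *Tlr8*, *Tlr4*, *Tlr7* and *Tlr2* (35 libraries, wild-type blue, labelled AMPKa1-/- orange). *Tlr8* (r = -0.956) and *Tlr4* (r = -0.903) fall along the score and *Tlr2* (r = -0.079) stays flat.

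Whether the response to Dex depended on LPS was tested as a difference of the Dex effect with LPS and the Dex effect without it. In wild-type 2 of the 10 genes had a higher and 4 a lower effect with LPS, where 32.0% of all genes were called (14.9% higher, 17.1% lower), and under the AMPKa1-/- label 3 and 3, where 28.4% were called (15.5% and 12.8%). *Tlr6* had the strongest call in both genotypes. The difference was -1.32 ± 0.19 in wild-type and -1.54 ± 0.18 under the label (adjusted p = 4.13e-06 and 1.27e-07, limma). *Ly96* also differed in both (-0.65 ± 0.18 and -0.85 ± 0.17, adjusted p = 0.0075 and 0.000376, limma), as its rise with Dex was measured in the absence of LPS, although in wild-type the call was lost after centring (-0.49, adjusted p = 0.109). The *Tlr7* rise was likewise smaller with LPS (-1.30 ± 0.31 and -0.78 ± 0.30, adjusted p = 0.00225 and 0.0471, limma). Without wild-type LPS replicate 2 the wild-type value was -0.85 (adjusted p = 0.0616), and under the label the call was lost with no filter (adjusted p = 0.0973), with quantile normalization (adjusted p = 0.0842) and without any 1 of the 12 libraries compared.

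*Tlr4* differed in wild-type (-1.95 ± 0.52, adjusted p = 0.00494, limma; -1.52 and 0.0648 without LPS replicate 2). Under the label its difference was -1.27 ± 0.49 with an adjusted p of 0.0515 (limma), and it was called with the replicate number as a block (adjusted p = 0.0237) and after centring (0.0157). *Tlr2* and *Tlr9* had a higher Dex effect with LPS in both genotypes (0.57 ± 0.16 and 0.44 ± 0.15 for *Tlr2*, adjusted p = 0.00711 and 0.0301; 1.10 ± 0.41 and 1.47 ± 0.39 for *Tlr9*, adjusted p = 0.0419 and 0.00474, limma). For *Tlr9* the Dex effect beside LPS was 0.29 and 0.60, not called, and its wild-type difference was lost with a pseudocount of 0.1 (adjusted p = 0.0885, limma), with no filter (0.0809), with only the groups compared (0.09), with the GC and length trend removed (0.0929) and without 8 of the 11 libraries compared (0.73 and 0.281 without LPS replicate 2). The *Tlr2* difference was lost without wild-type LPS replicate 3 (0.42, adjusted p = 0.0809, limma). Under the label it was lost after centring (0.36, adjusted p = 0.133), with only the groups compared (0.0667) and without vehicle replicate 1 or 2, Dex replicate 1, LPS replicate 2 or 3 or LPS + Dex replicate 2 (0.0605 to 0.0909). *Tlr1* fell with Dex under every condition tested, and its difference was 0.38 (95% interval -0.19 to 0.96) in wild-type and 0.81 ± 0.26 under the label (adjusted p = 0.0207, limma). That call was lost without vehicle replicate 3, LPS replicate 1 or LPS + Dex replicate 1 or 2 (adjusted p = 0.0535 to 0.0733), and with quantile normalization the wild-type difference was called too (0.70, adjusted p = 0.04).

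**Figure D4:**
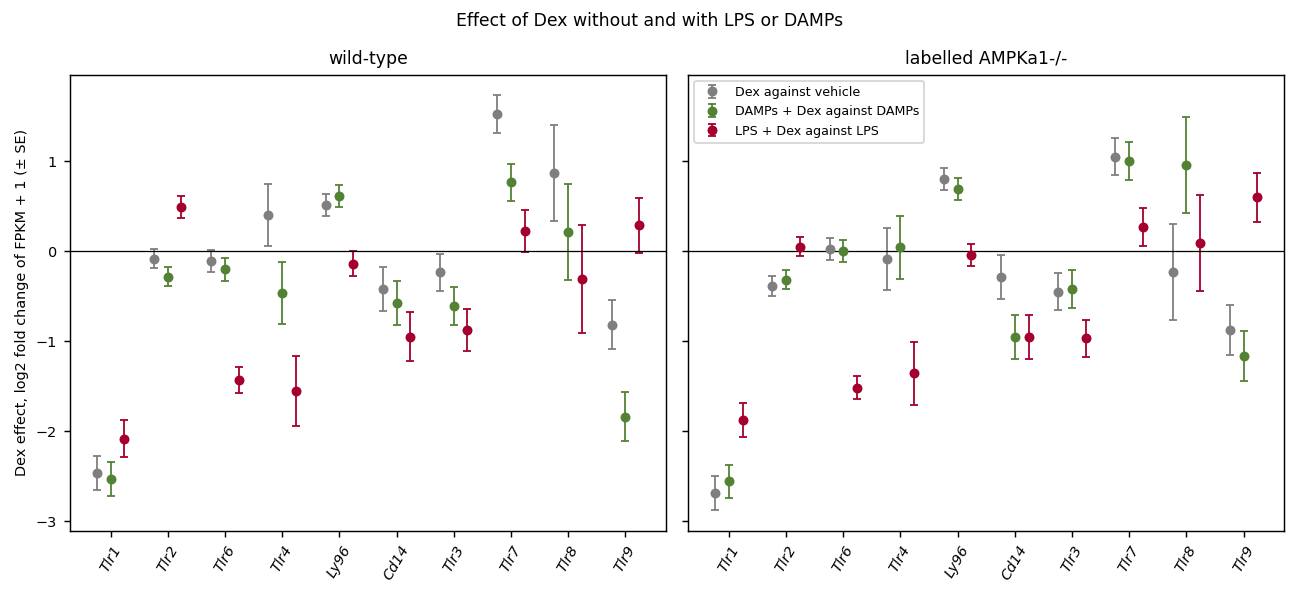
Log2 fold change (± SE) with Dex for each gene, against vehicle (grey), against DAMPs (green) and against LPS (red), for wild-type and libraries labelled AMPKa1-/-. *Tlr1* is below 0 in all 3, *Tlr6* and *Tlr4* are lowest against LPS, and *Ly96* and *Tlr7* lie above 0 against vehicle and DAMPs.

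DAMPs alone moved no member past the threshold in either genotype, where 2.01% of all genes were called in wild-type and 4.13% under the label. *Tlr9* was measured at 14.3, 14.4 and 16.0 FPKM with DAMPs in wild-type, above all 3 vehicle values of 7.62 to 8.50 FPKM, and at 6.66, 16.3 and 10.6 FPKM under the label, above vehicle values of 4.37 to 6.14 FPKM. The groups did not overlap in either genotype. The log2 fold changes were 0.83 ± 0.28 (adjusted p = 0.15, limma) and 0.86 ± 0.28 (adjusted p = 0.0821), and under the label the rise was called after centring (0.93, adjusted p = 0.0257) and with quantile normalization (0.98, adjusted p = 0.016). *Tlr2* was measured at 36.2, 37.2 and 40.0 FPKM with DAMPs in wild-type, also above the vehicle values, with a difference of 0.39 ± 0.11 (adjusted p = 0.0504, limma). It was called among genes with a mean of at least 5 FPKM (adjusted p = 0.0472) and after removal of the GC and length trend (adjusted p = 0.035).

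Dex beside DAMPs lowered *Tlr1* and *Tlr9* and raised *Tlr7* and *Ly96* in both genotypes. *Tlr1* was measured at 26.3, 22.0 and 34.0 FPKM with DAMPs and at 3.55, 4.34 and 3.68 FPKM with DAMPs + Dex in wild-type, and at 21.6, 25.6 and 26.9 against 3.04, 3.77 and 3.26 FPKM under the label. The groups did not overlap, with log2 fold changes of -2.53 ± 0.19 and -2.56 ± 0.19 (adjusted p = 2.89e-11 and 2.51e-11, limma). *Tlr9* fell to 3.74, 2.57 and 4.15 FPKM in wild-type and 3.95, 4.61 and 3.93 FPKM under the label (-1.84 ± 0.28 and -1.16 ± 0.28, adjusted p = 7.95e-06 and 0.002, limma). *Ly96* rose to 93.1, 87.1 and 73.0 FPKM and to 85.7, 85.4 and 78.3 FPKM (0.62 ± 0.12 and 0.69 ± 0.12, adjusted p = 0.000297 and 7.73e-05, limma), and *Tlr7* to 192, 128 and 158 FPKM and to 203, 159 and 144 FPKM (0.76 ± 0.21 and 1.00 ± 0.21, adjusted p = 0.00709 and 0.000561). The wild-type *Tlr7* call was lost without DAMPs + Dex replicate 1 (0.62, adjusted p = 0.0546, limma). *Cd14* fell under the label from 461, 448 and 430.3 FPKM to 234, 246 and 209.7 FPKM (-0.96 ± 0.24, adjusted p = 0.00401, limma), and in wild-type it was measured at 231, 252 and 323 against 185, 193 and 159 FPKM, a difference of -0.57 (adjusted p = 0.091), which was called with the GC and length trend removed (adjusted p = 0.0452). Small falls of *Tlr3* in wild-type (-0.61, adjusted p = 0.0337, limma) and of *Tlr2* under the label (-0.32, adjusted p = 0.0279) completed the calls. In the other genotype *Tlr3* differed by -0.42 (adjusted p = 0.155, limma) and *Tlr2* by -0.29 (adjusted p = 0.0506), neither called. Both calls were lost when only the groups compared were fitted (adjusted p = 0.076 and 0.0676), that of *Tlr3* also with no filter (0.0723) and without DAMPs replicate 1 or 3 or DAMPs + Dex replicate 1 or 2 (adjusted p = 0.074 to 0.148), and that of *Tlr2* without DAMPs replicate 1 or 3 or DAMPs + Dex replicate 1 or 2 (0.0513 to 0.104).

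Between genotypes, members were called with Dex only. There *Cd14* was higher under the AMPKa1-/- label (229, 349 and 259.9 FPKM against 163, 135 and 189 FPKM) and *Tlr7* was lower (158, 147 and 179 against 291, 256 and 192 FPKM). The groups did not overlap for either gene. The log2 differences were 0.77 ± 0.24 for *Cd14* (adjusted p = 0.0258, limma) and -0.59 ± 0.21 for *Tlr7* (adjusted p = 0.0395), in a comparison where 26.5% of all genes were called (15.5% lower, the rest higher). Both calls were lost with no filter (adjusted p = 0.0529 and 0.0774) and after removal of the GC and length trend (0.49 with adjusted p = 0.108, and -0.45 with 0.0622, limma). Leaving out Dex replicate 2 of the label also ended both (adjusted p = 0.17 and 0.171). So did leaving out wild-type Dex replicate 1 (0.0565 and 0.149, limma adjusted p) or 2 (0.137 and 0.141). The *Tlr7* call was also lost after centring (-0.43, adjusted p = 0.0682, limma) and without Dex replicate 1 of the label (0.0755). The trend of values on transcript length stood apart between these Dex groups. Its slope per SD of length was 0.20, 0.32 and 0.14 in wild-type and -0.03, -0.18 and 0.03 under the label.

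Marker genes also differed between the same Dex groups. All 6 neutrophil markers tested, of 10 listed, were called higher under the label (median log2 difference 1.65). The most abundant of them with Dex, *Mmp8*, was measured at 68.2, 71.9 and 54.6 FPKM under the label and at 30.8, 17.6 and 23.3 FPKM in wild-type, and *S100a8* at 19.1, 13.4 and 8.13 FPKM under the label and at 3.95, 1.10 and 4.19 FPKM in wild-type. Of 4 Y-linked genes tested, 3 were called lower under the label and none higher (median of the 4 -0.80): *Ddx3y* was measured at 24.0, 17.7 and 28.3 against 41.1, 42.9 and 37.5 FPKM, and *Kdm5d* at 8.40, 3.53 and 5.44 against 11.9, 11.1 and 10.7 FPKM. The groups did not overlap for these 4 named genes. Overlap is not given here for the other neutrophil and Y-linked genes tested. The share of all genes without overlap between these groups was not counted, so the separation of the 4 has no background to stand beside. Of all genes, 26.5% were called in this comparison (15.5% lower, the rest higher). *Ddx3y* was measured at 13.6 FPKM or more in every library and *Xist* at 0.0283 FPKM or less. Of 2 fibroblast markers tested, *Col1a1* was called lower under the label (-1.64, adjusted p = 0.0132, limma) and the other was not called, and of the 6 macrophage markers *Mertk* was called lower (-0.64, adjusted p = 0.0197). The part of these differences in the *Cd14* and *Tlr7* calls was not tested.

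For vehicle, LPS, LPS + Dex, DAMPs and DAMPs + Dex no member was called between genotypes, where 0.432%, 0.766%, 0.669%, 0.731% and 1.06% of all genes were called. *Cd14* means were higher under the label in all 6 treatments, with log2 differences of 0.64 for vehicle, 0.65 for LPS, 0.65 for LPS + Dex, 0.75 for DAMPs and 0.36 for DAMPs + Dex beside the 0.77 for Dex, and adjusted p between 0.243 and 0.781 in the first 5 (limma). *Cd14* libraries of the genotypes did not overlap with Dex, LPS, DAMPs and DAMPs + Dex. The same replicate numbers recur across treatments. Whether they mark the same mice is not given, so these 6 differences may not be independent. The summed neutrophil markers were also higher under the label without overlap with Dex (116, 104 and 77.7 against 37.1, 19.9 and 30.2 FPKM), with DAMPs (70.9, 48.7 and 36.8 against 20.3, 9.22 and 18.0 FPKM) and with DAMPs + Dex (73.4, 134 and 125 against 42.9, 27.5 and 49.4 FPKM), and overlapped with vehicle, LPS and LPS + Dex. With LPS + Dex the sum ran the other way, at 354, 339 and 626 FPKM under the label against 655, 513 and 1201 FPKM in wild-type. The median log2 difference of the 6 neutrophil markers tested was 0.96 for vehicle, 0.77 for LPS, 0.68 for LPS + Dex, 1.51 for DAMPs and 0.71 for DAMPs + Dex. In these, 0, 1, 1, 0 and 1 of them were called higher and none lower. The differences between genotypes in the responses to LPS, to Dex, to Dex beside LPS and to DAMPs were called for none of the 10 genes and for none of the 11354 tested (0.00%). For *Tlr2* the difference in Dex beside LPS, given above, was among those not called. The intervals bound the differences unequally: for the LPS response the 95% interval was -0.45 to 0.21 for *Tlr2*, -0.32 to 0.45 for *Tlr6* and -0.74 to 0.76 for *Cd14*, but -2.21 to 1.08 for *Tlr8*.

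Other genes of the pathway were read from lists of known roles. *Tlr13*, the 1 of 4 other Toll-like receptors that passed the filter, fell with LPS and recovered in part with LPS + Dex. It was measured at 218, 172 and 202 FPKM with vehicle, 14.6 and 8.86 FPKM with LPS, and 80.3, 63.7 and 44.4 FPKM with LPS + Dex in wild-type. The 3 groups did not overlap (-4.00 ± 0.27 with LPS and 2.32 ± 0.27 with LPS + Dex against LPS, adjusted p = 5.00e-13 and 5.81e-08, limma). Under the label *Tlr13* values were 171, 217 and 206 FPKM, then 27.8, 17.2 and 15.4 FPKM, then 75.1, 68.4 and 65.2 FPKM (-3.27 ± 0.24 and 1.78 ± 0.24, adjusted p = 2.21e-12 and 6.10e-07, limma).

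Of 10 genes for the trafficking and processing of endosomal receptors, 2 rose and 7 fell with LPS in both genotypes (median log2 fold changes -1.48 and -1.15). Over all genes tested 19.9% rose and 35.8% fell in wild-type and 20.2% rose and 44.1% fell under the label. *Lgmn*, a protease that cleaves endosomal receptors, fell by a log2 fold change of -2.65 ± 0.22 in wild-type, and *Ctsb*, a cathepsin, by -2.44 (both limma, called). *Unc93b1*, the chaperone that brings these receptors to endosomes, was measured at 786, 886 and 777 FPKM with vehicle and at 449.9 and 528 FPKM with LPS in wild-type, without overlap (-0.74 ± 0.17, adjusted p = 0.000596, limma). *Slc15a3*, an endosomal transporter, rose by 3.22 ± 0.22 in wild-type and fell by a log2 fold change of -2.11 ± 0.22 from LPS to LPS + Dex. *Hsp90b1*, the chaperone gp96 needed by many Toll-like receptors, was the other riser (1.21 ± 0.15, adjusted p = 1.19e-07, limma). When Dex was added to LPS, 0 of the 10 rose and 4 fell in wild-type and 1 rose and 4 fell under the label (median log2 fold changes -0.13 and -0.29), where 16.6% of all genes rose and 17.5% fell in wild-type and 19.3% and 18.4% under the label.

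Of 6 genes for LPS handling and surface partners, 5 passed the filter, and with LPS 4 of these fell in each genotype while none rose (median log2 fold changes -1.72 and -1.85), where 35.8% and 44.1% of all genes fell. *Cd180*, a relative of TLR4, fell with LPS (-2.03 ± 0.26 in wild-type, adjusted p = 2.15e-07, limma) and with Dex (-2.48 ± 0.24, adjusted p = 5.29e-09). *Ly86*, which encodes the MD-1 partner of CD180 and is the counterpart of *Ly96*, fell with LPS (-1.72 ± 0.29 in wild-type, adjusted p = 1.19e-05, limma) and in wild-type with Dex (-0.71 ± 0.26, adjusted p = 0.038), where *Ly96* rose. *Cd36*, a co-receptor of TLR2 with TLR6, fell in wild-type with LPS (-2.39 ± 0.46, adjusted p = 7.30e-05, limma) and further with LPS + Dex (-2.97 ± 0.46 against LPS, adjusted p = 8.50e-06). *Itgam*, an integrin chain, did not pass the test with LPS and fell with Dex (-2.38 ± 0.23 in wild-type, adjusted p = 8.82e-09, limma). With Dex alone 4 of the 5 fell in wild-type and 3 under the label, where 14.9% and 16.0% of all genes fell. From LPS to LPS + Dex 1 of the 5 fell in each genotype, where 17.5% and 18.4% of all genes fell. None of the 5 rose in these comparisons.

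Of 12 adaptors and kinases, 5 rose and 3 fell with LPS in wild-type and 4 rose and 4 fell under the label (median log2 fold changes 0.12 and -0.01). The 8 called in each genotype stand beside 55.7% and 64.3% of all genes called, a share near that of the list. With LPS + Dex against LPS, 0 rose and 3 fell in wild-type, and 2 rose and 3 fell under the label, where 34.1% and 37.7% of all genes were called. *Irak2*, a kinase downstream of MyD88, was measured at 39.5, 32.8 and 38.6 FPKM with vehicle, 105 and 106 FPKM with LPS, and 56.1, 40.6 and 56.3 FPKM with LPS + Dex in wild-type. It rose with LPS (1.49 ± 0.18, adjusted p = 6.10e-08, limma), fell with Dex alone (-1.26 ± 0.16, adjusted p = 9.06e-07) and fell from LPS to LPS + Dex (-1.05 ± 0.18, adjusted p = 3.54e-05). *Traf6*, a ubiquitin ligase of the same branch, rose with LPS (1.45 ± 0.20, adjusted p = 5.13e-07, limma) and fell from LPS to LPS + Dex (-1.75 ± 0.20, adjusted p = 5.53e-08). Of 8 negative regulators 6 passed the filter, and 2 rose and 1 fell with LPS in each genotype, against the same 55.7% and 64.3%. *Irak3*, an inhibitory kinase of the family, rose with LPS (3.02 ± 0.15, adjusted p = 2.01e-15, limma) and differed by -0.04 between LPS + Dex and LPS (adjusted p = 0.862).

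The genes whose log2(FPKM + 1) most resembled each receptor over the 35 libraries were named by their Pearson correlation, with no test, since the libraries share treatments. For *Tlr1* these were *Irak2* (r = 0.983) and *Tnf* (0.976), for *Tlr2* *Chil1* (0.985), for *Tlr6* *Gbp7* (0.963), for *Cd14* *Surf4* (0.980) and *Traf1* (0.972), and for *Ly96* *Cables1* (0.967) and *Usp30* (0.960). For *Tlr9* they were *P3h3* (0.936) and *Adcy3* (0.929), for *Tlr7* *Ssh2* (0.935) and *Abca6* (0.923), for *Tlr3* *Rap1b* (0.945) and *Slfn5* (0.870), for *Tlr4* *Fxr1* and *Zc3h7b* (0.934 each), and for *Tlr8* *Creb1* and *Sp1* (0.976 each). Among the 10 genes themselves, *Tlr2* and *Cd14* were the most alike (r = 0.910), and *Tlr1* and *Ly96* the most opposed (r = -0.906).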

How the data were processed

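The authors deposited FPKM values per library for Ensembl genes. The submitters' processing notes name Bowtie2 2.2.3, TopHat2 2.0.12, HTSeq 0.6.1 and DESeq2, and the builds GRCm38 and mm10. FPKM are not counts: with GENCODE M21 exon lengths only 55.02% to 64.1% of values under 10 fragments came out whole within 0.001, so no count test was run. Symbols and coordinates are from GENCODE M21.

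Tests used limma 3.58.1 (R 4.3.3; trended empirical Bayes, 2-sided) on log2(FPKM + 1) in 1 fit of 12 groups with 23 residual degrees of freedom. The 11354 genes averaging 1 FPKM or more were included. Benjamini-Hochberg adjustment was applied per comparison over all of them, at 0.05. The fit was also run on simulated data, with spread drawn independently for each gene and changes added in wild-type LPS. Those data lacked the spread shared among genes, so the run does not show the error rate in the real libraries. Tables and figures used Python 3.11.15, numpy 2.4.6, pandas 2.3.3 and matplotlib 3.10.9.

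The members and gene lists were chosen with earlier results of these data known. Named beside the members were at most 3 called genes per list with the largest changes, members of a list that a sentence is about, and the 2 most similar genes per member. Replicate numbers were checked by correlating deviations from group means. All 3 same-number correlations exceeded 0.1 for vehicle with Dex, LPS and LPS + Dex and for LPS with LPS + Dex under the AMPKa1-/- label (0.12 to 0.40), between the genotypes with LPS + Dex (0.12, 0.12 and 0.51), and in wild-type for Dex with LPS + Dex (0.28, 0.22 and 0.55), Dex with DAMPs (0.38, 0.24 and 0.49) and LPS + Dex with DAMPs (0.76, 0.49 and 0.58). They did not for the pairs of groups compared directly within wild-type, of which LPS with LPS + Dex shared 2 numbers (0.11 and 0.43). Whether a number marks the same mouse in every group is not given in the sources used here. For *Tlr2* and *Tlr6*, 1 of the 2 genes most alike in pattern is not reported here.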

Additional observations from a re-analysis of the deposited data

How the results depend on the processing

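The 10 genes gave 74 calls over the 24 comparisons, and no call reversed under any alternative run. With a pseudocount of 0.1, 71 were kept; with no filter, 66; after centring, 68; with quantile normalization, 71; with only the groups compared, 64. With the replicate number as a block all 74 were kept, and the block changed no other count by over 1.5 times. The mean of at least 5 FPKM left 59 of these calls to test and kept all. Removal of the GC and length trend, chosen after seeing the data, kept 71, and 72 with the replicate block.

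The count of members called moved for LPS + Dex against LPS in wild-type (6 called, 2 with only the groups compared, which leave 2 and 3 libraries). For DAMPs against vehicle in wild-type it went from 0 to 1 with a mean of at least 5 FPKM and with the GC and length trend removed, with and without the replicate block, and ran from 0 to 1 over the leave-one-out fits. Under the AMPKa1-/- label it went from 0 to 1 after centring and with quantile normalization, and from 0 to 1 over the leave-one-out fits. The genotype comparison with Dex (2 called) gave 0 with no filter, 1 after centring, 0 with the GC and length trend removed and 1 with the block added, and ran from 0 to 3 over the leave-one-out fits. Over these fits DAMPs + Dex against DAMPs in wild-type ran from 3 (without DAMPs + Dex replicate 1) to 7, the difference of the Dex effects with and without LPS in wild-type from 3 (without LPS replicate 2) to 6, and the genotype comparison with LPS + Dex from 0 to 1. Causes were not tested. *Tlr9* after LPS rests on few fragments, and wild-type LPS on 2 libraries.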
